A study of Mus musculus and Homo sapiens with 12 samples.

Results

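The ERV1 elements of the mouse genome that carry neither a VL30, an RLTR6 nor an MMERGLN name were examined in mouse embryonic stem cells (mESC). They were chosen by annotation alone, as every mm10 repeat of the family ERV1 whose subfamily name starts with none of MMVL30, RLTR6 and MMERGLN. The rule found 52766 of the 55909 ERV1 elements and of the 3158171 repeat elements in the table, in 112 subfamilies. Counts in at least 1 library were found for 5140 of them. The libraries were made from RNA bound to chromatin (caRNA, which remains in the chromatin pellet of fractionated nuclei) and pulled down with an antibody against 5-methylcytosine (m5C). The groups were wild-type (WT) mESC and mESC without Tet2 (Tet2 KO, Tet2-/-), with 3 libraries each. Both cultures were grown in serum medium with LIF, CHIR99021 and PD0325901, and no further treatment is given for these 6 samples. The cells came from another laboratory. Their mouse strain and the number of clones are not given in the sources used here. The study describes the replicates behind its genome-wide data as biological, without saying whether these were separate cultures, and p-values measure the spread between these libraries.

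The table holds repeats only, so neither the loss of Tet2 nor stem cell markers could be checked in it. It also holds the precipitated fraction only. More RNA of an element and more m5C on that RNA therefore cannot be told apart, and neither can more RNA per cell and more cells that make it. The counts of the classes DNA, LINE, LTR and SINE summed to between 1532029 and 3318565 per library. They were lower in the 3 KO libraries (at most 1999210) than in the 3 WT libraries (at least 2199886), and the part of depth in the differences below was not tested. Levels below are given as CPM, the counts of an element scaled to 1000000 of these repeat counts.

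Endogenous retroviruses are the remains of retroviral infections of the germ line. A complete copy has an internal part with the gag, pol and env genes between a pair of long terminal repeats (LTRs), and the LTR holds the promoter and the polyadenylation signal. ERV1 is the branch related to gammaretroviruses, and in the mouse it includes the murine leukaemia virus (MuLV) type proviruses, which entered the genome recently and can still be nearly intact. TET2 oxidises 5-methylcytosine, in DNA and also in RNA. In repeat annotation a name ending in -int is an internal part, and RLTR4_Mm is the LTR that flanks the internal parts RLTR4_MM-int and MuLV-int.

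Reverse transcription of a retrovirus starts from a cellular tRNA whose end pairs with the primer binding site, the first bases of the internal part. These sites are shown because they differ among the internal parts with the most counts, and also within MuLV-int. The first 60 bases are printed in the direction of the element, from the GRCm38 (mm10) genome, with the 18 bases of the site in capitals. They are chr11:6757635-6757694 (minus strand), chr1:170942048-170942107 and chr9:62439748-62439807 (plus strand), chr15:22704780-22704839 and chr7:15709051-15709110 (both minus strand).
RLTR4_MM-int, chr11: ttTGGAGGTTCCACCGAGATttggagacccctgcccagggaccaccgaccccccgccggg
MuLV-int, chr1: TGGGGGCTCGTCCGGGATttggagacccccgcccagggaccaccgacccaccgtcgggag
MuLV-int, chr9: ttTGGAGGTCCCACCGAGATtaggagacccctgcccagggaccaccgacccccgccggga
RLTR1B-int, chr15: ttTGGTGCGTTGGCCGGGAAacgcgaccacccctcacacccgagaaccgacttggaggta
MuRRS-int, chr7: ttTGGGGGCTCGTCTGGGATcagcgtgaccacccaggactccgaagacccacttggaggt
Each capital stretch equals, over 18 bases with 0 mismatches, the complement of a tRNA 3′ end from the same genome's annotation. The tRNA is tRNA-Gln for RLTR4_MM-int and for MuLV-int on chr9, tRNA-Pro for MuLV-int on chr1 and for MuRRS-int, and tRNA-Gly for RLTR1B-int. The following tallies cover internal parts of at least 4000 bp that start at the first base of the subfamily's consensus sequence. Copies inside a longer remaining ERV1 element were left out. Of 59 such RLTR4_MM-int copies, 57 had a site for tRNA-Gln. Of 13 MuLV-int copies, 8 had a site for tRNA-Pro and 5 a site for tRNA-Gln, so the name MuLV-int covers both kinds. Of 20 RLTR1B-int copies, 12 matched tRNA-Gly with 0 mismatches. The MuRRS-int site printed here is a minority form: 18 of 141 copies matched tRNA-Pro with 0 mismatches, and 78 with 4 mismatches.

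The elements held a larger share of the repeat counts in Tet2 KO than in WT. In WT the share was 6.43%, 6.71% and 6.50%, and in KO it was 8.16%, 9.46% and 8.65%. Every KO library was above every WT library. The mean was 6.55% ± 0.148 in WT and 8.76% ± 0.657 in KO (SD, n = 3), a difference of 2.21 percentage points and a log2 ratio of 0.42. The exact permutation test gave p = 0.1 (two-sided), the smallest value that 20 assignments of 3 against 3 libraries can give. This design therefore cannot pass 0.05 for a single value.

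The VL30, RLTR6 and MMERGLN elements, the rest of the family, were at 110892, 117051 and 110362 CPM in WT and 142639, 130873 and 141255 CPM in KO. They were higher in KO as well, again with no overlap. The log2 ratio of the remaining ERV1 counts to these counts was -0.78 ± 0.019 in WT and -0.66 ± 0.174 in KO (SD, n = 3). The KO libraries lay on both sides of the WT values, and the exact permutation test gave p = 0.4. A difference between the remaining elements and this pooled set was not detectable with 3 libraries per genotype. The pool is mixed. Its VL30 and RLTR6 elements were at 106148, 113310 and 106516 CPM in WT and 130846, 117205 and 125916 CPM in KO. Its MMERGLN elements were at 4744, 3741 and 3846 CPM in WT and 11793, 13669 and 15339 CPM in KO. A ratio to either part alone was not tested.

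**Figure D1:**
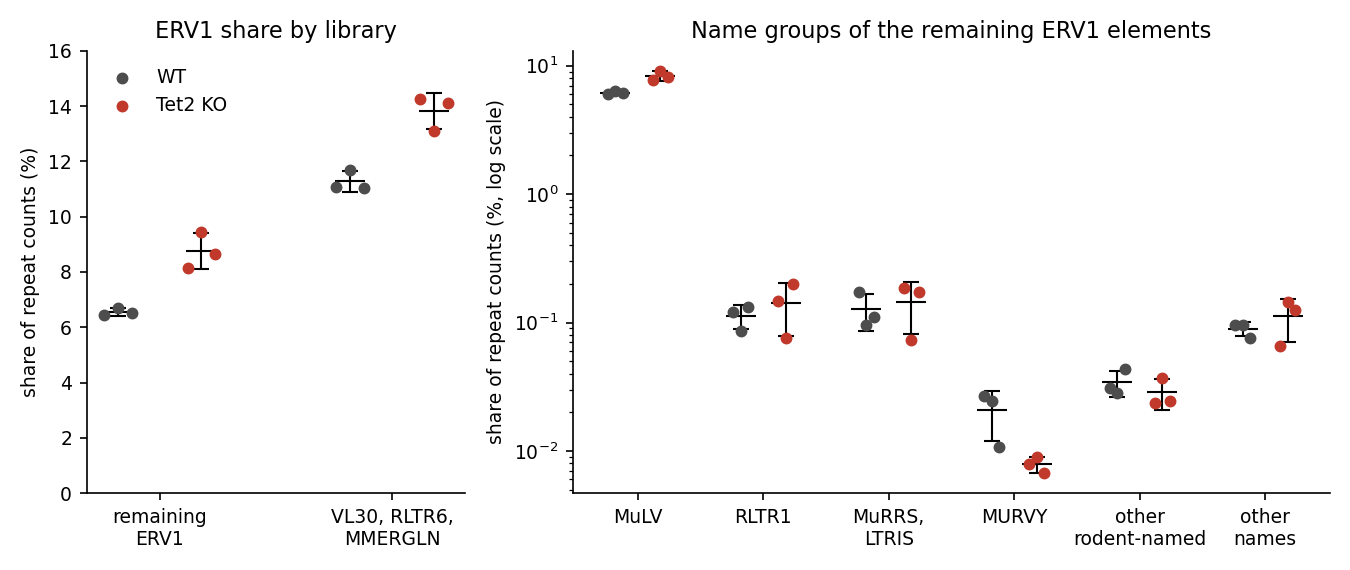
Share of the repeat counts in percent, per library (points, WT grey and Tet2 KO red), with mean and SD over 3 libraries (bars). On the left, the remaining ERV1 elements lie between 6.43% and 6.71% in WT and between 8.16% and 9.46% in KO, beside the VL30, RLTR6 and MMERGLN elements. On the right, on a log axis, the 6 name groups of the remaining elements are shown, with the MuLV group far above the others.

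Of the difference of 2.21 points in the share of the remaining ERV1 elements, 2.16 points lay in the MuLV group, the 11 subfamilies whose names start with MuLV or RLTR4. They held 94.6% of the counts of the remaining ERV1 elements. Their share of the repeat counts was 6.17% ± 0.202 in WT and 8.32% ± 0.718 in KO (SD, n = 3), with no overlap. The exact permutation p was 0.1, or 0.3 adjusted over the 6 name groups. RLTR4_MM-int, MuLV-int and RLTR4_Mm alone gave 61603 of these CPM in WT and 83147 in KO. The 8 other subfamilies whose names happen to start with RLTR4 gave only 46.8 CPM in WT and 65.9 CPM in KO.

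The other name groups were small. The RLTR1 group held 0.113% ± 0.0242 of the repeat counts in WT and 0.142% ± 0.0624 in KO. The group of MuRRS and LTRIS held 0.126% ± 0.0402 and 0.145% ± 0.0625 (SD, n = 3 for each). In both groups the genotypes overlapped, with exact permutation p = 0.5 and 0.8. The other rodent-named subfamilies (RLTR and RMER) and those with other names overlapped too, with exact permutation p = 0.5 for each. The MURVY group was the only name group lower in KO in all libraries, at 0.0207% ± 0.00867 in WT and 0.00785% ± 0.00113 in KO (exact permutation p = 0.1, adjusted 0.3). Its log2 ratio of -1.40 became -0.93 over elements with at least 10 counts, with exact permutation p = 0.3, and the genotypes then overlapped.

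RLTR4_MM-int, the MuLV-type internal part, held 75.1% of the counts of the remaining ERV1 elements. Its level was 49224, 50894 and 48966 CPM in WT and 59949, 70801 and 64023 CPM in KO. The genotypes did not overlap. The edgeR log2 change across all subfamilies was 0.20 ± 0.078 (SE), with an adjusted p of 0.286. With library totals in place of TMM scaling it was 0.39. The difference of 0.18 is the mean shift that TMM scaling put between the genotypes in the subfamily table.

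RLTR4_Mm, the LTR of these proviruses, was at 2941, 5079 and 5188 CPM in WT and 9839, 8397 and 7454 CPM in KO. It was higher in every KO library, and the first WT library was lower than the others. The edgeR log2 change was 0.77 ± 0.256 (SE), adjusted p = 0.238. Without the first WT library it was 0.54. DESeq2 gave 0.72 with an adjusted p of 0.0387.

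MuLV-int was at 7612, 7820 and 7086 CPM in WT and 7388, 11967 and 9623 CPM in KO. The first KO library lay within the WT range. In edgeR the log2 change was 0.18 ± 0.171 (SE), adjusted p = 0.637, and without the second KO library it was 0.0042.

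Per kilobase of elements with counts, RLTR4_MM-int stood at 91.2 ± 1.92 CPM in WT and 119 ± 10.1 CPM in KO (SD, n = 3). RLTR4_Mm stood at 40.8 ± 11.8 CPM and 79.4 ± 11.1 CPM. The LTR level was 30.2%, 50.5% and 53.6% of the internal level in the WT libraries. It was 83.0%, 59.97% and 58.9% in the KO libraries. All KO values were above all WT values in this ratio, which was computed after the values of both subfamilies were known and was not tested.

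**Figure D2:**
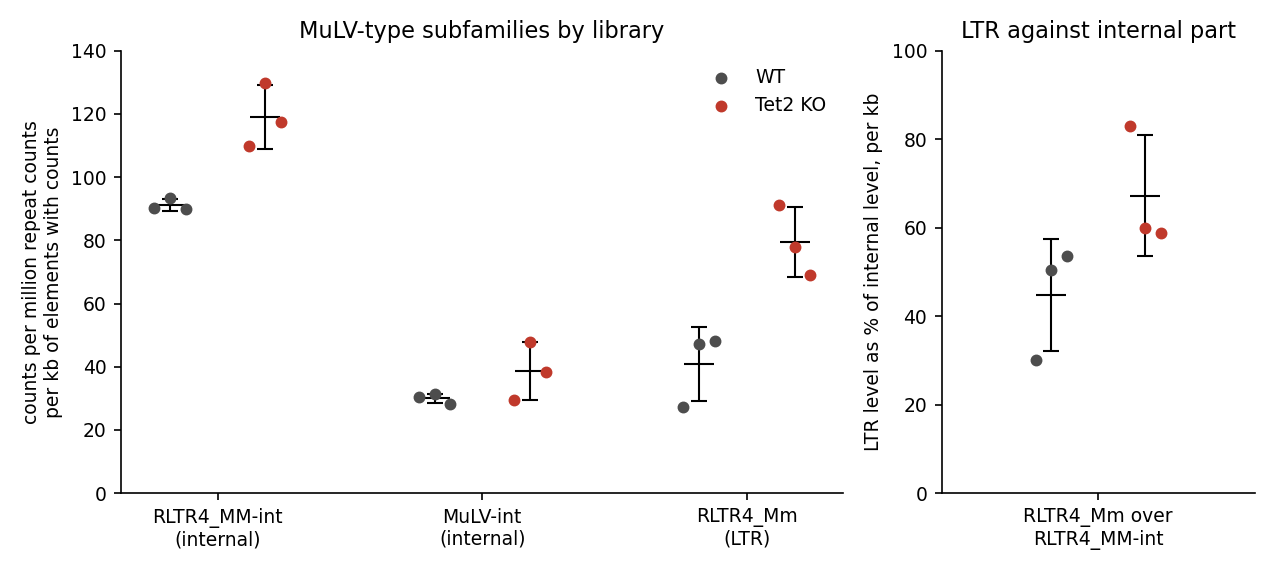
CPM per kb of elements with counts (left) for the internal parts RLTR4_MM-int and MuLV-int and for the LTR RLTR4_Mm, per library (points), with mean and SD over 3 libraries. The right panel gives the LTR level as a percentage of the RLTR4_MM-int level. KO libraries lie above WT libraries for RLTR4_MM-int, for RLTR4_Mm and for their ratio, while MuLV-int overlaps.

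An LTR can stand beside its internal part or alone, after the internal part was lost by recombination. Of the 174 RLTR4_Mm elements, 157 lay within 100 bp of an internal part, and 154 of these had counts. They gave 2926, 5051 and 5083 CPM in WT and 9738, 8278 and 7398 CPM in KO, with no overlap. The 17 elements without such a neighbour, 9 of them with counts, gave 14.6, 27.9 and 105 CPM in WT and between 55.9 and 120 CPM in KO. Their genotypes overlapped. Most counts of the third WT library lay in 3 of these elements, with 68.5, 94.7 and 132 counts and 0 in every KO library. Apart from a single element on chr9, none had more than 22.8 counts in any KO library.

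That element had the lowest p of all RLTR4_Mm elements. It lies at chr9:111526539-111527236, 16767 bp from Gm42523 and in no annotated gene. Its level was 13.7, 21.5 and 14.3 CPM in WT and 100, 119 and 44.1 CPM in KO, with the genotypes apart. In edgeR the log2 change was 2.68 ± 0.491 (SE), with an adjusted p of 0.101. Because LTRs carry the signals that start and end the transcript, 120 bases of this element are printed below with the same stretch of an LTR beside an internal part, chr4:101871505-101871624 (minus strand). The stretch on chr9 is chr9:111527054-111527173 (plus strand), bases 516 to 635 of the element. The capitals mark TATAAA, the core of the TATA box, and AATAAA, the polyadenylation signal.
RLTR4_Mm, chr9: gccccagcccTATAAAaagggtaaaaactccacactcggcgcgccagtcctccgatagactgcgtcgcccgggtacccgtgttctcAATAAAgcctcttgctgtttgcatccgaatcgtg
RLTR4_Mm, chr4: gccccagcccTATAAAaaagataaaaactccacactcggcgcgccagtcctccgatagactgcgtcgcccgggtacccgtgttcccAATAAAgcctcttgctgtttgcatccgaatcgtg
The pair differed by 3 bases over 120. The LTR on chr4 was at 317, 433 and 600 CPM in WT and 1340, 673 and 495 CPM in KO, so its genotypes overlapped on this scale. Of 111 RLTR4_Mm elements of 500 to 700 bp with counts, 110 held both motifs on the element's strand. Of 1310 other remaining ERV1 LTRs of that length, 458 (35.0%) held both, against 16.9% of the 9834 LTR-class elements of that length. With both strands searched the shares were 99.1%, 39.5% and 26.3%. The motifs do not overlap in these elements, and a match describes the sequence only.

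Of 65 RLTR4_MM-int loci in the edgeR test, 63 had a log2 change above 0, beside 9784 of all 19030 loci. So had 35 of the 36 RLTR4_MM-int copies of at least 7000 bp. Near-identical copies can share reads, as described below, so these cannot be taken as separate measurements. Over these 36 the log2 change ranged from -0.087 to 1.10 with a median of 0.68, and with library totals from -0.36 to 0.84 with a median of 0.42. The copy with the highest mean count was RLTR4_MM-int at chr4:108146732-108154273, 1733 bp from Scp2, which encodes a sterol carrier protein. It was at 2343, 2160 and 2143 CPM in WT and 3058, 3205 and 2811 CPM in KO. All KO values were above all WT values, and the edgeR log2 change was 0.72 ± 0.139 (SE), adjusted p = 0.101. A copy at chr11:6750119-6757694, 23983 bp from Gm11977, was at 2302, 1926 and 1850 CPM in WT and 3082, 3284 and 2405 CPM in KO. Its log2 change was 0.80 ± 0.174 (edgeR, adjusted p = 0.101).

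The copy at chr8:90886778-90891471 lies within Chd9, which encodes a chromatin remodelling protein, on the same strand and overlapping an annotated exon. It was at 386, 348 and 434 CPM in WT and 598, 815 and 714 CPM in KO. The edgeR log2 change was 1.14 ± 0.212 (SE), with an adjusted p of 0.101. The annotation also lists a MuLV-int element inside it, at chr8:90887900-90891184, which had almost the same counts in every library. Whether the same reads were counted under both names was not tested. Of all remaining ERV1 elements with counts, 74 lay at least 90% inside a longer one. The nested MuLV-int elements gave 984, 904 and 1029 CPM in WT and 1437, 1976 and 1716 CPM in KO. Without all nested elements the share of the remaining ERV1 elements still had a log2 ratio of 0.41.

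Other copies of RLTR4_MM-int among the 10 elements with the highest mean count lay on chr2 (866 bp from Gm13526), chr16 (6163 bp from Dop1b), chr13 (in Gm35279), chr11 (in an intron of Pkd1l1), chr10 (in Gm46223, Gm48274 and Gm48275), chr4 (3905 bp from Gm12791) and chr8 (13282 bp from Klhl36). Their edgeR log2 changes ranged from 0.54 to 0.71, with adjusted p from 0.101 to 0.184. On library totals the copies on chr8 and chr13 overlapped between genotypes. The highest MuLV-int copy, chr1:170942048-170949650, is the copy printed above with a tRNA-Pro site. It was at 2105, 2319 and 1906 CPM in WT and 1681, 3751 and 2170 CPM in KO. The first KO library was the lowest of all and the second the highest, with a log2 change of 0.55 ± 0.322 (edgeR, adjusted p = 0.374).

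The MuLV-int copies of at least 4000 bp whose primer binding site was tallied above were also compared by that site. The 8 copies with a tRNA-Pro site summed to 4188, 4865 and 3724 CPM in WT and 3663, 7118 and 4661 CPM in KO. The 5 copies with a tRNA-Gln site summed to 1704, 1643 and 1882 CPM in WT and 1697, 2262 and 2552 CPM in KO. Genotypes overlapped for both kinds, and in both the first KO library was within or below the WT range.

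Counts of single copies are uncertain, because the copies are nearly the same. Among 36 RLTR4_MM-int copies of at least 7000 bp, all with counts, the median identity over 630 pairs was 97.1%. The median identity of a copy with its closest relative was 99.7%. In the median copy 6.54% of the 100-base windows occurred in no other non-nested RLTR4_MM-int, MuLV-int or RLTR4_Mm element of any length. The leading copy near Scp2 had 0%. Of 172 RLTR4_Mm elements, 139 had no 100-base window of their own. Both LTRs were annotated for 35 of the 36 copies, and they were identical to each other in 26, a feature of recent insertion. The 16 MuLV-int copies were more varied, with a median pair identity of 84.2% and 61.8% own windows in the median copy. The deposited counts are fractional and near-identical copies can share reads, though the counting options are not given. Like changes of many copies therefore cannot be taken as separate measurements.

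At the level of loci, no remaining ERV1 element passed an adjusted p of 0.05. The edgeR test included 207 of them among 19030 repeat loci, and 0 were called, against 0.0473% of all loci. At an unadjusted p under 0.05, 91 were higher in KO (44.0%), where 13.1% of all loci were, and 3 were lower (1.45%), where 7.92% of all loci were. DESeq2 called 28 (13.5%), all higher, where it called 11.3% of all loci in either direction. The share of all loci that DESeq2 called higher is not given here. The median log2 change was 0.71 over the 207 loci and 0.035 over all loci. With library totals the medians were 0.45 and -0.22, and 51 loci were higher (24.6%, against 9.63% of all loci) and 4 lower (1.93%, against 13% of all loci) at an unadjusted p under 0.05. TMM scaling of the locus table shifted the genotypes by 0.25 against the library totals, opposite to its shift in the subfamily table.

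On the TMM scale, 89 of the 207 loci were higher in all KO libraries than in all WT libraries (43.0%), against 15.1% of all loci, and 3 were lower in the same sense, against 12.6%. On library totals these numbers were 60 (29.0%), against 11.6%, and 5 (2.42%), against 19.7%. Nearly all such loci were MuLV-type: of the 89, 45 were RLTR4_MM-int, 32 RLTR4_Mm and 8 MuLV-int. The median log2 change was 0.67 over 65 RLTR4_MM-int loci, 1.35 over 70 RLTR4_Mm loci and 0.67 over 20 MuLV-int loci. It stayed above 0 for all 3 with library totals, at 0.41, 1.13 and 0.40.

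**Figure D3:**
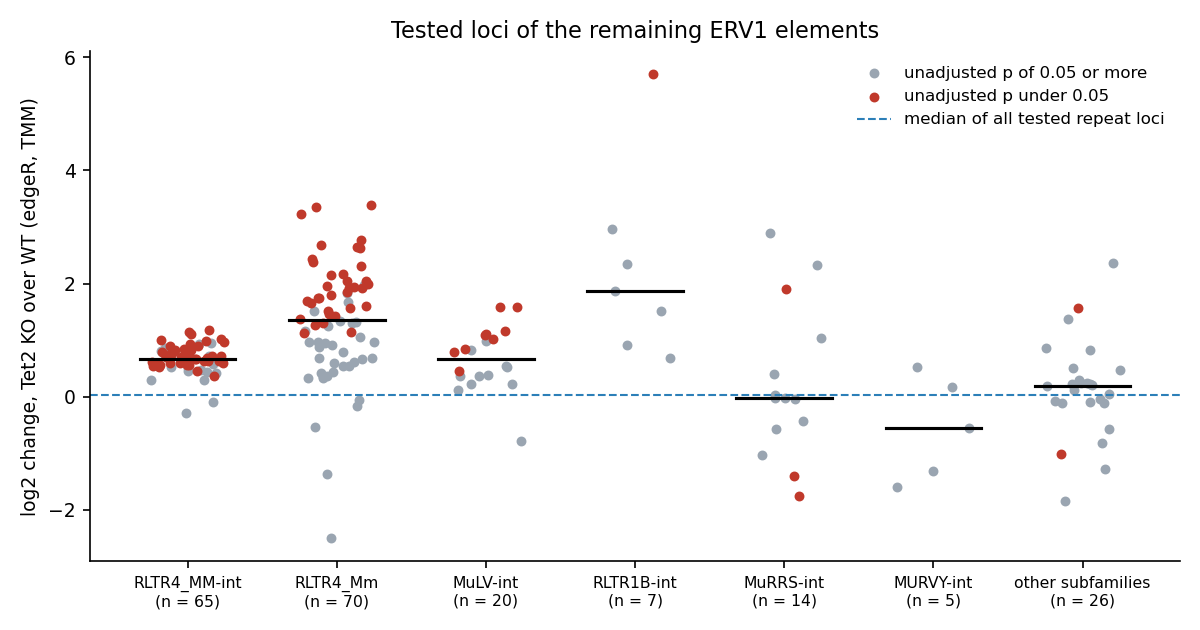
Fitted log2 change (edgeR, TMM scaling) of each of the 207 tested loci of the remaining ERV1 elements, by subfamily, with the median of each set (black line). Red points have an unadjusted p under 0.05, and none passed after adjustment. The medians of RLTR4_MM-int (0.67) and RLTR4_Mm (1.35) lie above the median of all 19030 tested loci (dashed line, 0.035), and that of MuRRS-int (-0.021) lies close to it.

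RLTR1B-int, an internal part by its name, was at 157, 478 and 269 CPM in WT and 801, 344 and 1160 CPM in KO. The second KO library was within the WT range, and the edgeR log2 change was 1.16 ± 0.569 (SE), adjusted p = 0.347. The log2 changes of its 7 tested loci ranged from 0.69 to 5.70. These are the loci that passed the filter on low counts. A copy on chr17 that did not pass had 0.29, 97.9 and 118 counts in WT and 3.78, 1 and 2.95 counts in KO. The highest change belonged to the copy at chrX:164048878-164053437, 17267 bp from Siah1b, a ubiquitin ligase gene. In WT this copy had 2.5, 2.88 and 2.5 counts per library, and in KO it had 160, 13.3 and 31.1. The edgeR adjusted p was 0.101, and the size of the change rests on under 3 counts in each WT library and mostly on the first KO library. The LTR RLTR1B itself was at 620, 267 and 200 CPM in WT and 186, 52.3 and 728 CPM in KO, with full overlap.

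MuRRS-int, the internal part of a group flanked by LTRIS LTRs, was at 561, 326 and 379 CPM in WT and 732, 419 and 608 CPM in KO. Its log2 change was 0.30 ± 0.361 (edgeR, adjusted p = 0.731). Of 14 tested loci, 6 had a log2 change above 0. Single copies went in both directions, with edgeR log2 changes from -1.76 to 2.90 over these loci. The copy at chr9:7484974-7494264, 8087 bp from Mmp10, was at 18.8, 13.6 and 17.6 CPM in WT and 5.82, 5.05 and 4.47 CPM in KO. Its edgeR log2 change was -1.40 ± 0.442 (SE), adjusted p = 0.148. A MuRRS4-int copy at chrX:33208765-33217438, 17430 bp from Spin2-ps6, was at 36.6, 34.0 and 27.3 CPM in WT and 13.3, 15.0 and 11.6 CPM in KO. A MuRRS-int copy on the Y chromosome, chrY:44524987-44531904, was at 17.4, 12.6 and 10.9 CPM in WT and 5.52, 3.09 and 1.00 CPM in KO. These 3 were the only tested loci of the remaining ERV1 elements lower in all KO libraries on the TMM scale, and none passed the edgeR adjusted threshold.

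MURVY-int, an internal part whose copies lie mostly on the Y chromosome, was lower in KO. It was at 259, 221 and 98.4 CPM in WT and 71.4, 71.7 and 59.6 CPM in KO, with no overlap. In edgeR the log2 change was -1.67 ± 0.551 (SE), adjusted p = 0.238. DESeq2 gave an adjusted p of 0.0124. The 261 elements on the Y chromosome gave 231, 171 and 44.3 CPM in WT and 28.1, 28.5 and 19.2 CPM in KO. The 89 elsewhere gave 28.3, 49.7 and 54.1 CPM in WT and 43.3, 43.2 and 40.4 CPM in KO. The Y-linked copies were apart between genotypes and the copies on other chromosomes overlapped, a contrast that was not tested. All repeats of the Y chromosome together were at 20448 to 22470 CPM in WT and 22132 to 22848 CPM in KO, and so were not lower in KO.

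Of the 43 remaining ERV1 subfamilies in the edgeR test across 546 subfamilies, 1 was called, against 2.01% of all subfamilies. At an unadjusted p under 0.05, 7 were higher in KO (16.3%), where 8.79% of all subfamilies were, and 3 were lower (6.98%), where 7.14% were. DESeq2 called 7 of the 43 (16.3%), against 10.3% of all subfamilies. The log2 change was above 0 for 21 of the 43, with a median of -0.014, beside 0.12 over all subfamilies. With library totals these medians were 0.13 and 0.30.

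The called subfamily was MER31B, an old LTR, which was lower in KO. It was at 10.5, 25.2 and 21.96 CPM in WT and 2.18, 1.24 and 3.74 CPM in KO. The edgeR log2 change was -3.17 ± 0.593 (SE), adjusted p = 0.0476. The call was lost when any single library was left out, with adjusted p between 0.0773 and 0.227. Its counts came from a different element in each WT library. In the first WT library it was an element within Olfr1428 on chr19 with 19.3 counts, at 0 to 0.35 counts in the other libraries. In the third it was an element at chr5:147925381-147925693, 24188 bp from Gm15721, with 58.3 counts and at most 0.2 in the others. In the second it was an element on chr18 with 77.8 counts, against 0 to 6.98 in the others.

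MER90a, RLTR41 and RLTR23 were also higher in all KO libraries at an unadjusted p under 0.05, with a mean of under 50 counts per library. MER90a was at 3.38, 2.89 and 2.26 CPM in WT and 7.73, 114 and 22.9 CPM in KO. Most of its counts lay in the second KO library, and the edgeR log2 change was 3.90 ± 1.07 (SE), adjusted p = 0.162. RLTR41 had an edgeR log2 change of 2.84 ± 0.805 (adjusted p = 0.171), with 7.83 CPM in the second KO library and 42.6 to 50.2 CPM in the others, against 2.11 to 6.07 CPM in WT. In the first KO library most RLTR41 counts lay in elements on chr5, with 53.65 and 23.95 counts. In the third KO library most lay in elements on chrX, with 22.83, 21.83 and 17.83 counts. Each of these elements had 0 counts in every other library. RLTR23 had a log2 change of 1.32 ± 0.458 (edgeR, adjusted p = 0.238), with 5.71 to 8.16 CPM in WT and 11.9 to 23.7 CPM in KO. These subfamilies were chosen after their values were seen.

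RMER2, an old rodent LTR, was likewise counted in different elements in different WT libraries. It was at 119, 111 and 16.3 CPM in WT and 18.04, 16.1 and 18.4 CPM in KO. The third WT library was at the KO level, and the edgeR log2 change was -2.37 ± 0.841 (SE), adjusted p = 0.238. The counts of the first WT library lay mainly in elements on chr11, within Ssh2 and Gm12339, with 121 and 113 counts. Those of the second lay mainly in 3 elements beside or in BC080695 and Gm13043 on chr4, with 130, 129 and 63.9 counts. RMER5, spread over 285 elements with counts, was at 38.4, 30.5 and 33.0 CPM in WT and 48.2, 48.3 and 71.1 CPM in KO. The genotypes did not overlap, but the edgeR log2 change of 0.52 ± 0.555 had an adjusted p of 0.685.

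The other subfamilies among the 10 highest, LTRIS_Mm, RLTR1D2_MM, LTRIS2 and MERV1_I-int, overlapped between genotypes. Single libraries stood out in each. LTRIS_Mm was at 54.7 CPM in the second KO library and between 232 and 573 CPM in the other libraries. RLTR1D2_MM was at 838 CPM in the third WT library and between 17.6 and 171 CPM elsewhere. LTRIS2 was at 623 CPM in the first WT library and between 34.9 and 222 CPM elsewhere, and MERV1_I-int at 428 CPM in the second KO library and between 115 and 229 CPM elsewhere. Their edgeR adjusted p lay between 0.487 and 0.948.

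Counts held by a single library were common outside the MuLV group. Of 209 such elements with at least 50 counts in all, 97 (46.4%) drew at least 90% of their counts from 1 library. In the MuLV group 15 of 191 did (7.85%), and among all repeat elements 4116 of 28869 did (14.3%). The 97 elements were spread over all libraries, with 13 to 19 for each WT library and 10 to 21 for each KO library. Examples are 3 LTR73 elements within Kat2b on chr17, with 506, 352 and 168 counts in the second WT library and 0 in the others. A further case is a MER89 element at chr7:42812357-42812833, 3995 bp from Gm2381, with 293 counts in the third KO library and 0 in the others.

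**Figure D4:**
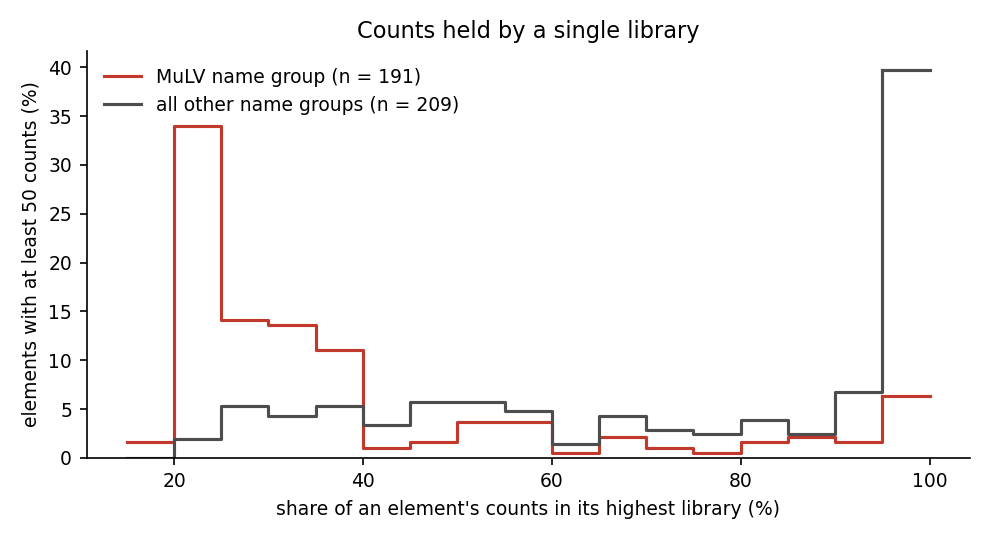
Distribution of elements with at least 50 counts by the share of their counts that lies in their highest library (in percent, bins of 5), for the MuLV name group (191 elements) and all other name groups (209 elements). An even spread over 6 libraries lies at the left. The MuLV elements gather there, and the others pile up at the right end, where 1 library holds nearly all counts.

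The make-up of the counts differed little between genotypes. Elements of at least 3000 bp held 89.0% ± 1.76 of the counts in WT and 86.8% ± 2.14 in KO (SD, n = 3), with exact permutation p = 0.3. Internal parts held 89.8% ± 1.53 and 87.6% ± 2.18, with p = 0.2 by the exact permutation test. Elements that overlap no annotated gene held 65.4% ± 0.230 and 65.6% ± 1.43, with p = 0.9 by the exact permutation test. These values overlapped between genotypes for all 3 measures.

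Cytosine content varied among the subfamilies and did not order them by counts. Among the remaining ERV1 subfamilies compared here, CG dinucleotides were most frequent in RLTR4_Mm, RLTR4_MM-int and MuLV-int. The VL30, RLTR6 and MMERGLN elements with counts together had 2.24 CG dinucleotides per 100 bases, above MuLV-int. They had 24.0% C on the element's strand and 48.0% G and C together. RLTR4_MM-int elements with counts had 27.0% C on the element's strand, 51.5% G and C together and 3.02 CG dinucleotides per 100 bases. RLTR4_Mm elements had 27.8%, 49.6% and 3.39, and MuLV-int elements 25.4%, 48.7% and 2.11. LTRIS_Mm, with 0.489% of the counts of the remaining ERV1 elements, had 27.3%, 49.1% and 1.79. All remaining ERV1 elements with counts together had 23.6%, 45.7% and 1.32. MURVY-int had 23.4% C and 1.42 CG per 100 bases, MuRRS-int 22.1% and 1.32, and RLTR1B-int 21.3% and 1.45. These are descriptions of the mm10 sequence, and their part in the levels was not tested.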

How the data were processed

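Chromatin-associated RNA precipitated with an m5C antibody was sequenced from 3 WT and 3 Tet2 KO mESC libraries. Per the labels and the methods, the authors used Trimmomatic 0.39 for trimming, HISAT2 2.1.0 for alignment to mm10, Picard against duplicates and featureCounts for repeat elements. The deposited table holds these estimated counts, which are fractional. The counting options are not given in the sources used here, and near-identical copies can share reads. No input or spike-in columns were used here. The human table was not used.

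Sums per subfamily and counts per locus over 4 repeat classes (DNA, LINE, LTR, SINE) were rounded and tested in edgeR 4.0.16 (quasi-likelihood, filterByExpr, TMM, prior count 0.125) with Benjamini–Hochberg adjustment over all features, and with DESeq2 1.42.0 as an alternative. The SE is the log2 change over the root of F. Scripts were tested on simulated data. Shares were compared by exact permutation tests. Genes were those of GENCODE M21, and sequence came from GRCm38.p6. Text names every called subfamily and locus, the 10 highest and up to 5 per direction with the lowest p whose groups did not overlap (for subfamilies, with a mean of at least 50 counts). Other items were chosen after their values were seen. The members and lists were chosen with earlier results of these data known. Libraries with the same replicate number were not treated as pairs. Intervals for counting error are not given, since PCR reads are not independent molecules.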

Additional observations from a re-analysis of the deposited data

How the results depend on the processing

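The share of the remaining ERV1 elements, the MuLV share, the MURVY share, the long and internal shares and the ratio to the other ERV1 elements kept their direction under every alternative run. The log2 ratio of the share was between 0.36 and 0.47 with 1 library left out. The log2 ratio was between 0.36 and 0.48 for the MuLV group and between -1.71 and -1.17 for MURVY, again with 1 library left out. For the RLTR1 group it was between -0.0092 and 0.63, for MuRRS and LTRIS between -0.035 and 0.51, for other rodent-named subfamilies between -0.50 and -0.054 and for other names between 0.094 and 0.59. Over elements with at least 10 counts MURVY was at -0.93 (exact permutation p = 0.3) and the other rodent-named subfamilies at -0.77. The difference in the log2 ratio to the other ERV1 elements was between 0.027 and 0.20. The differences in percentage points were between -3.09 and -0.997 for the long share, between -3.17 and -1.02 for the internal share and between -0.583 and 0.811 for the share outside genes. The last also turned to -0.209 points with protein-coding genes only.

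The call of 1 subfamily became 0 with DESeq2 size factors, library totals, a total count of at least 10, the replicate block and without the highest element of each subfamily, and 7 with the DESeq2 Wald test, which called 10.3% of all subfamilies (MER31B, MURVY-int and RMER2 lower, RLTR4_Mm, MER90a, RLTR1D and RLTR41 higher). Most counts of MER90a lay in the second KO library and most of RLTR1D in the first. It was 0 whenever 1 library was left out. The count of called loci was 0 throughout, except 28 with the DESeq2 Wald test, which called 11.3% of all loci. The cause of the difference between the tools was not tested. With a total count of at least 10 in place of filterByExpr, 766 loci of the remaining ERV1 elements were tested. Of these, 471 had a log2 change above 0, against 178 of 207 in the main fit. At an unadjusted edgeR p under 0.05, 108 of the 766 were higher in KO. Their median was 0.62, beside -0.20 over all loci. Shares over all loci were not computed for this filter, so the counts of 471 and 108 cannot be read as particular to these elements. Same-numbered libraries correlated at -0.0893 to -0.0123 in their deviations from the group means. No pairing by number was seen in these values, and whether same-numbered libraries shared a batch was not tested. With the replicate block 0 subfamilies and 0 loci were called, and the share had a log2 ratio of 0.42 with a sign-flip p of 0.25, the smallest that 3 pairs allow (exact).

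Among named subfamilies, LTRIS_Mm turned to -0.35 with the replicate block and to between -0.28 and 0.65 with 1 library left out. RLTR1B ranged from -1.74 to 0.26, RLTR1D2_MM from -2.28 to 0.32, LTRIS2 from -1.32 to 0.91 and MERV1_I-int from -0.52 to 0.58. No direction can be given for these. Leaving out nested elements was chosen after seeing the data. Values for elements outside the MuLV group often rest on 1 library.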
